A study of Mus musculus with 8 samples.

Results

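The genes described here are 42 mouse genes that act in the response to amino acid shortage and to unfolded proteins, centred on the transcription factor ATF4. They were taken by symbol from the deposited table, which gives FPKM (sequenced fragments per kilobase of transcript, scaled to the depth of the library) for 23281 genes. All 42 were found, as 55 transcripts whose FPKM were summed per gene, and all 42 were among the 12025 genes that passed a filter on low values (1 FPKM or more in 2 or more libraries) and were tested. By role they are 8 transcription factors and regulators, 8 enzymes of amino acid and one-carbon metabolism, 5 amino acid transporters, 11 tRNA synthetases and 10 genes of the endoplasmic reticulum stress response. The first role, called regulators below, also holds the enzyme gene Chac1, the secreted glycoprotein gene Stc2 and the lipoprotein receptor gene Vldlr.

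RNA of mouse embryonic fibroblasts of strain C57BL/6 was sequenced in 4 groups of 2 libraries, to ask what loss of Taf4 and its return in different forms do to mRNA levels. TAF4 is a subunit of TFIID, the general factor that assembles at promoters, and its TAFH domain is a docking surface for activators. The control line was Taf4 loxp/-, so that it still had 1 floxed allele, although its genotype label reads Taf4 wild type. The knockout line was Taf4 -/-. Both rescue groups shared this Taf4 -/- background and carried a human TAF4 transgene, hTAF4 wt in one group and a form without the TAFH domain (TAFH-deleted) in the other. Each rescue library came from 1 clone, named clone 1 and clone 2 within each form, and the promoter of the transgene is not given in the labels. Whether the 2 libraries of control and of knockout stem from separate cultures is not given. Each of these pairs entered the main test as 1 sample, so the spread behind its p-values is that between the rescue clones. With 1 library per clone, part of this spread may be technical.

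The implied depth was 14300000 to 17300000 fragments per library. Both libraries of control, and both of knockout, differed by less than the sampling noise (chi-square per gene 0.737 ± 0.0344 and 0.617 ± 0.0341, SE), and each pair entered as 1 sample. The wild-type clones (1.57 ± 0.0653) and the TAFH-deleted clones (2.45 ± 0.104) differed by more. Of 8 fibroblast markers, 7 were above 1 FPKM in all libraries, with a summed level of 673 to 763 FPKM, while Thy1 stayed under 1 FPKM. Endothelial and skeletal muscle markers were all under 1 FPKM, and blood and macrophage markers summed to 1.26 to 10.6 FPKM. Epithelial markers summed to 0.428 to 4.87 FPKM, of which Krt19 alone passed 1 FPKM in a library. Of the pluripotent cell markers Pou5f1 and Nanog were under 1 FPKM, and Sox2 was above it in all libraries. Their sum was 11.7 to 12.5 FPKM in control, 5.44 to 5.49 in knockout, 7.42 to 8.91 in wild-type rescue and 6.31 to 21.0 in TAFH-deleted rescue, and its part in the results was not tested. Taf4a was listed at 11.1 and 11.5 FPKM in control, 12.5 and 12.4 in knockout, 14.5 and 15.0 in wild-type rescue and 14.7 and 19.2 in TAFH-deleted rescue. The labels do not give the deleted exons and this value covers the whole transcript, so it does not check the genotypes.

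ATF4 is made when translation initiation factor eIF2 is phosphorylated by kinases that sense uncharged tRNA, unfolded protein, heme shortage or double-stranded RNA. It pairs with C/EBP factors on composite C/EBP-ATF response elements near genes for amino acid synthesis, uptake and tRNA charging, and it drives CHOP (Ddit3), TRIB3 and CHAC1. The unfolded protein response also has the branches of XBP1 and ATF6, which act on chaperone genes of the endoplasmic reticulum through other elements.

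The elements were searched in RefSeq promoters (GRCm38.p6, 250 bases before to 50 after a transcript start, both strands), which were found for 38 of the 42 genes. Some genes had more than 1 promoter. Of 42 promoters compared, 33 had their bases after the start near the start of a GENCODE transcript. For the rest, distances to the start rest on RefSeq alone. The C/EBP-ATF response element TGATGNAA was present in 13 of 38 genes (34.2%), against 4.51% of 27025 genes. Its stricter form TGATGCAA, which is a subset of the first, was present in 10 of 38 (26.3%), against 1.03%. The endoplasmic reticulum stress response element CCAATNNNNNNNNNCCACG was present in 4 of 38 (10.5%), against 0.137%, and the XBP1 and ATF6 element TGACGTGG in 0 of 38, against 0.714%. TGATGNAA matches lay in 3 of 8 regulators (Chac1, Trib3, Vldlr), 2 of 8 enzymes (Asns, Pycr1), 2 of 4 transporters with a promoter in the table (Slc7a11, Slc1a4), 5 of 8 synthetases (Gars, Aars, Tars, Iars, Yars) and 1 of 10 endoplasmic reticulum genes (Herpud1). The stress response element was found among the endoplasmic reticulum genes Hspa5, Hsp90b1, Dnajc3 and Creld2 and in no member of another role. A match is a description of the letters and not a shown binding site.

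The windows below carry matches of genes that the results return to. Chac1, Trib3, Herpud1 and Slc1a4 had lower levels in both TAFH-deleted clones than in knockout, and Asns and Slc7a11 differed strongly between those clones. Hspa5 and Hsp90b1 had the most fragments per possible read start in every library. Each is printed 5′ to 3′ on the strand of the gene, with the matches in capitals, and the match of Trib3 lies after the transcript start and that of Slc1a4 across it. The matches of Chac1, Herpud1, Asns and Hspa5 end 185, 104, 15 and 46 bases before the start, those of Slc7a11 58 and 39 bases, and the match shown for Hsp90b1 88 bases; another match of Hsp90b1, 193 bases before the start, lies outside its window.
Chac1, chr2:119350993-119351112, plus strand: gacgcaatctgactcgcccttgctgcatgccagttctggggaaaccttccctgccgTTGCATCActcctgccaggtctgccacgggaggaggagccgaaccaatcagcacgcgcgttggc
Trib3, chr2:152344028-152344057, minus strand: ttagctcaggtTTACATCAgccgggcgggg
Herpud1, chr8:94386261-94386380, plus strand: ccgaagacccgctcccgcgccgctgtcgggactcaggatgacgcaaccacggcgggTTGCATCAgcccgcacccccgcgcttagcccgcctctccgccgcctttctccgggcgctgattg
Slc1a4, chr11:20332699-20332728, minus strand: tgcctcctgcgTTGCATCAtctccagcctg
Asns, chr6:7693210-7693329, minus strand: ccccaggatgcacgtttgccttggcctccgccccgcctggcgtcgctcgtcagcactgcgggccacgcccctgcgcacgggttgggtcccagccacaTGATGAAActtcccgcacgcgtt
Slc7a11, chr3:50443616-50443735, minus strand: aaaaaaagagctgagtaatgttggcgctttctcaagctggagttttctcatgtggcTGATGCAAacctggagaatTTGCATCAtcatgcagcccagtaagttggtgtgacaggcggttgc
Hspa5, chr2:34771970-34772089, plus strand: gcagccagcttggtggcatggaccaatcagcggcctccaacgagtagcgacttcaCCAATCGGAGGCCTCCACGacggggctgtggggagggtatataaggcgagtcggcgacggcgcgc
Hsp90b1, chr10:86705483-86705602, minus strand: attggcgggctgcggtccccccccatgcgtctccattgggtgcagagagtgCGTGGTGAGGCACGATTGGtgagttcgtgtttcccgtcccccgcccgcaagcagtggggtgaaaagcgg

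Most of the 42 genes were well expressed, with a median of 50.4 FPKM in control against 20.02 for all genes tested. Low FPKM came in steps of 1 fragment, so the fragments of each gene could be estimated from its FPKM. They were divided by the possible read starts on both strands. This share counts each fragment as a start of its own, and the read starts themselves were not observed. Positions in use means this share throughout. The median gene of the 42 used 34.5% of these positions (mean over the 8 libraries), against 13.9% for all genes tested, and 7 of 42 (16.7%) used more than 50%, against 4.60%. These were Hsp90b1, Hspa5, Nars, Atf4, Gars, Tars and Pdia4. At the other end, 10 used less than 20%, among them Vldlr, Slc7a11 and Stc2.

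**Figure D1:**
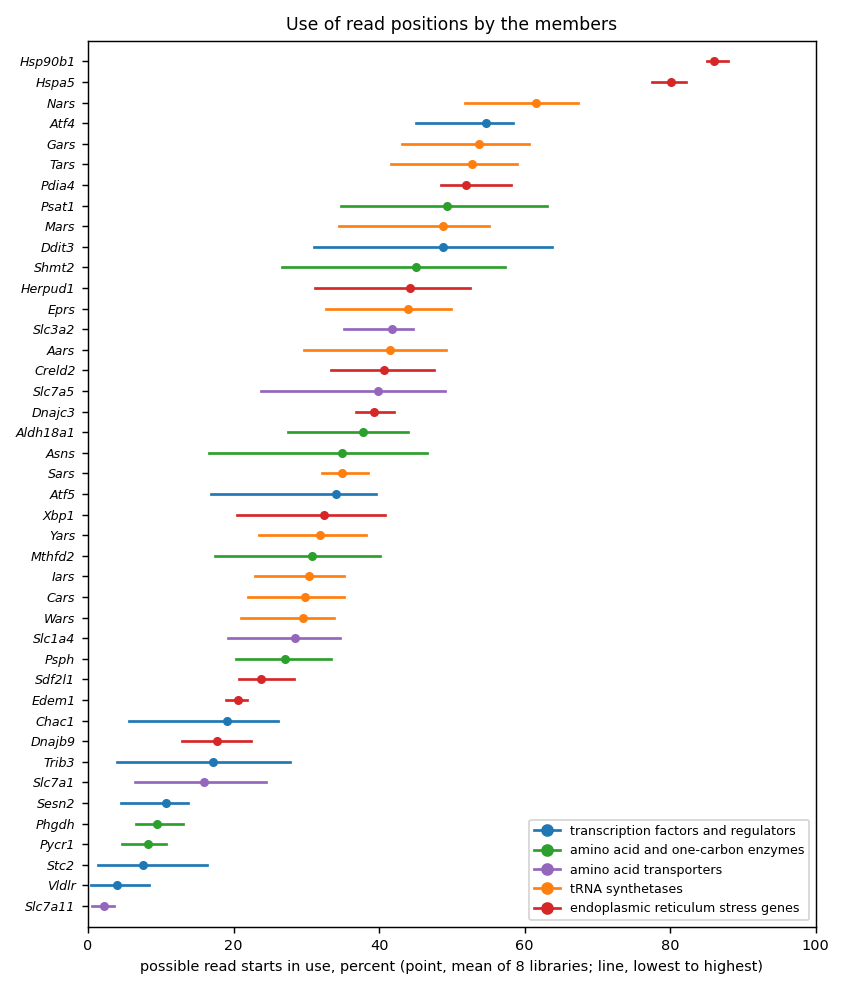
Share of possible read starts in use by each of the 42 genes, in percent, computed as estimated fragments over possible read starts. Points are means of 8 libraries, lines run from the lowest to the highest library, and colours give the role. Hsp90b1 (85.1% to 88.0%) and Hspa5 (77.5% to 82.2%) lie above all other genes and hardly vary, while Slc7a11 and Vldlr lie near 0.

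The endoplasmic reticulum chaperones Hsp90b1 (GRP94) and Hspa5 (BiP) had almost the same number of fragments in every library. Hsp90b1 had 4698 to 4854 fragments and Hspa5 had 4056 to 4299, although the implied depth varied. Their differences in FPKM were close to the ratios of depth. The log2 difference of knockout from control was 0.19 for each, where the log2 ratio of implied depth (control over knockout) was 0.22. For wild-type rescue against knockout the differences were -0.20 for Hsp90b1 and -0.21 for Hspa5, where the depth ratio was -0.20, and for TAFH-deleted against wild-type rescue they were 0.19 and 0.17, where it was 0.16. The part of depth and of 1 read per position in differences of this size was not tested, and small differences of the 7 genes above are to be read beside these values. In bulk RNA, fewer cells with a transcript and less of it per cell cannot be told apart.

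Across the 42 genes, limma called none in knockout against control, in wild-type rescue against knockout or in TAFH-deleted rescue against knockout, at an adjusted p below 0.05 (background 0.0% of 12025 genes in each direction and comparison). At an unadjusted p below 0.05 these comparisons had 1, 3 and 6 of the 42 genes (2.38%, 7.14% and 14.3%), beside 1108, 1602 and 789 of all genes (9.21%, 13.3% and 6.56%). For TAFH-deleted against wild-type rescue, 1 of the 42 genes fell and 0 rose, where 1.69% of all genes were called lower and 0.931% higher. That gene was Ddit3. At an unadjusted p below 0.05 there were 11 of 42 (26.2%, background 28.8%), so the share of the 42 genes with a small p was near that of all genes.

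**Figure D2:**
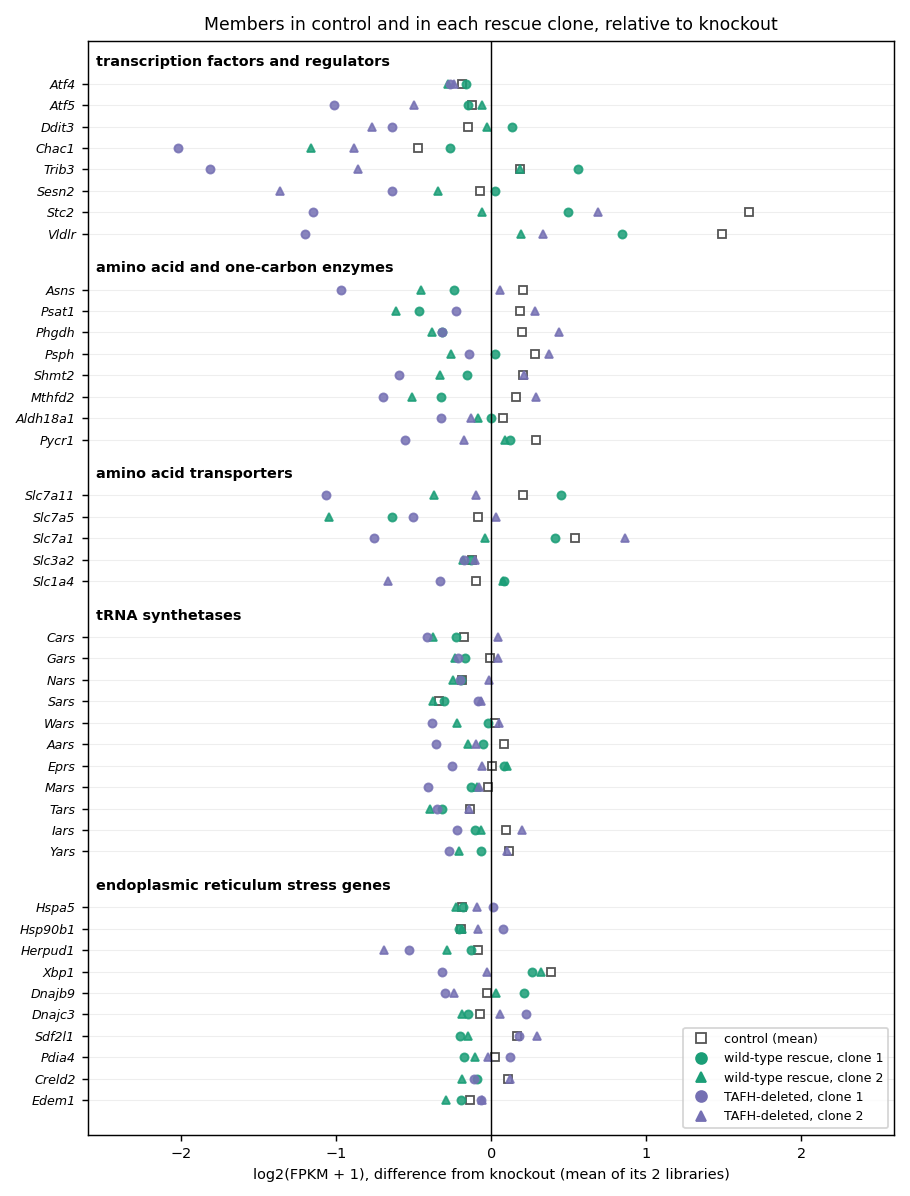
Differences of log2(FPKM + 1) from knockout for each gene, by role; open squares are control (mean), green symbols wild-type rescue and purple symbols TAFH-deleted rescue, with circles for clone 1 and triangles for clone 2. The regulators lie to the left of knockout in TAFH-deleted clone 1, 8 of 8 genes, and most enzymes have TAFH-deleted clone 1 to the left and clone 2 to the right of knockout.

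The genes of the regulator role, which includes Chac1, Stc2 and Vldlr, were lower in TAFH-deleted rescue than in knockout in 8 of 8 (median -0.73, all genes 0.03 with 44.2% lower). Compared with wild-type rescue, 8 of 8 were also lower (median -0.75, all genes 0.06 with 43.9% lower), from -1.71 in Trib3 to -0.03 in Atf4. These counts of group means were the same under quantile normalization. By clone, 8 of 8 were lower than knockout in clone 1 (median -1.08) and 6 of 8 in clone 2 (median -0.63), where Stc2 and Vldlr were higher. Against wild-type rescue 4 of 8 were lower without overlap (background 26.4%) and 0 of 8 higher without overlap (background 37.1%), and only Ddit3 was called. Ddit3 encodes CHOP, a C/EBP-family factor that promotes cell death under lasting stress. It was at 80.0 and 79.9 FPKM in control, 88.1 and 89.8 in knockout, 97.6 and 87.2 in wild-type rescue and 56.8 and 51.7 in TAFH-deleted rescue. Both TAFH-deleted clones were below every other library. The means were 92.4 ± 7.34 FPKM in wild-type and 54.3 ± 3.62 in TAFH-deleted rescue (SD, n = 2 clones each), 1.70-fold apart. On the log2(FPKM + 1) scale Ddit3 fell by 0.76 ± 0.09 (SE), with a limma adjusted p of 0.0496, and the clones differed from the wild-type mean by -0.69 and -0.82.

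This call sits at the edge of the threshold. It was lost under 8 of 16 alternative settings, with adjusted p from 0.000969 to 0.594 and a difference from -0.87 to -0.68 over all 16. Leaving out wild-type clone 1 or clone 2 ended it (adjusted p 0.594 and 0.437), and with the replicate block it was 0.0722. Its fragments, which are the same FPKM rescaled by length and depth, were 541 and 560 in the TAFH-deleted clones. They were 870 to 1111 in the other 6 libraries, and this is no separate measure of the difference. Ddit3 lies in a listed locus shared with the synthetase gene Mars (chr10:126727849-126748842, mm9), which is transcribed from the opposite strand. In the GRCm38 annotation 68 of 890 exon bases of Ddit3 overlap Mars, and the strand setting of the counting is not given in the sources used here. The fragments of Ddit3 and Mars were not whole numbers in any library, at 540.62 and 2047.39 in TAFH-deleted clone 1. Low values of genes with 1 transcript and a locus of their own were whole. Whether fragments were divided between Ddit3 and Mars was not tested, so the value of Ddit3 may be partly apportioned. Mars itself was at 52.5 and 66.1 FPKM in TAFH-deleted rescue and 63.8 to 70.1 in the other libraries, so only clone 1 was below them.

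Atf4, the central factor, did not follow Ddit3 in the FPKM difference between the rescue forms. It was at 75.0 and 76.6 FPKM in control, 86.7 and 86.4 in knockout, 77.2 and 71.2 in wild-type rescue and 71.7 and 73.2 in TAFH-deleted rescue. Both rescue forms were below knockout and overlapped each other (TAFH-deleted against wild-type rescue -0.03 ± 0.07 SE, limma adjusted p = 0.78). Atf4 used more than 50% of its positions, and control and knockout had 1946 to 2016 fragments. Its difference of 0.19 between those groups was no larger than the depth ratio of 0.22. Wild-type rescue had 2006 and 1832 fragments of Atf4 and TAFH-deleted rescue 1555 and 1808, the lowest of all libraries. Atf5, a related factor of the stress response, was at 50.1 to 55.9 FPKM in control, knockout and wild-type rescue and at 27.0 and 39.1 in TAFH-deleted rescue. The TAFH-deleted clones were below all other libraries (-0.65 ± 0.19 against wild-type rescue, limma adjusted p = 0.129).

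Trib3, a pseudokinase that feeds back on ATF4, had the largest difference between the rescue forms among the 42 genes. It was at 27.4 and 27.9 FPKM in control, 24.5 and 23.9 in knockout, 36.1 and 27.7 in wild-type rescue and 6.19 and 12.9 in TAFH-deleted rescue. The TAFH-deleted clones were below all other libraries, and the rescue means were 3.34-fold apart. The difference from wild-type rescue was -1.71 ± 0.37 (SE, limma adjusted p = 0.0844), and it was the 1 gene of 42 lower by at least 2-fold there, where 5.94% of all genes were, while 0 of 42 were higher by that much (background 2.6%). Chac1, an enzyme that degrades glutathione, was at 29.0 and 28.3 FPKM in control, 39.7 and 40.5 in knockout, 33.2 and 17.4 in wild-type rescue and 9.14 and 21.3 in TAFH-deleted rescue. TAFH-deleted clones were below control and knockout, but clone 2 lay above wild-type clone 2. Against knockout, Chac1 (-1.45 ± 0.63) and Trib3 (-1.34 ± 0.45) were the 2 genes at least 2-fold lower, where 2.94% of all genes were (0 of 42 were higher, background 0.715%), and neither passed (limma adjusted p 0.777 and 0.74).

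Sesn2, a stress protein that restrains mTORC1, was at 16.1 to 17.4 FPKM in control and knockout, 17.5 and 13.4 in wild-type rescue and 10.7 and 6.11 in TAFH-deleted rescue. The TAFH-deleted clones were again the lowest libraries (-0.84 ± 0.31 against wild-type rescue, limma adjusted p = 0.176). In contrast to Atf5, Chac1 and Trib3, the lower value came from clone 2.

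**Figure D3:**
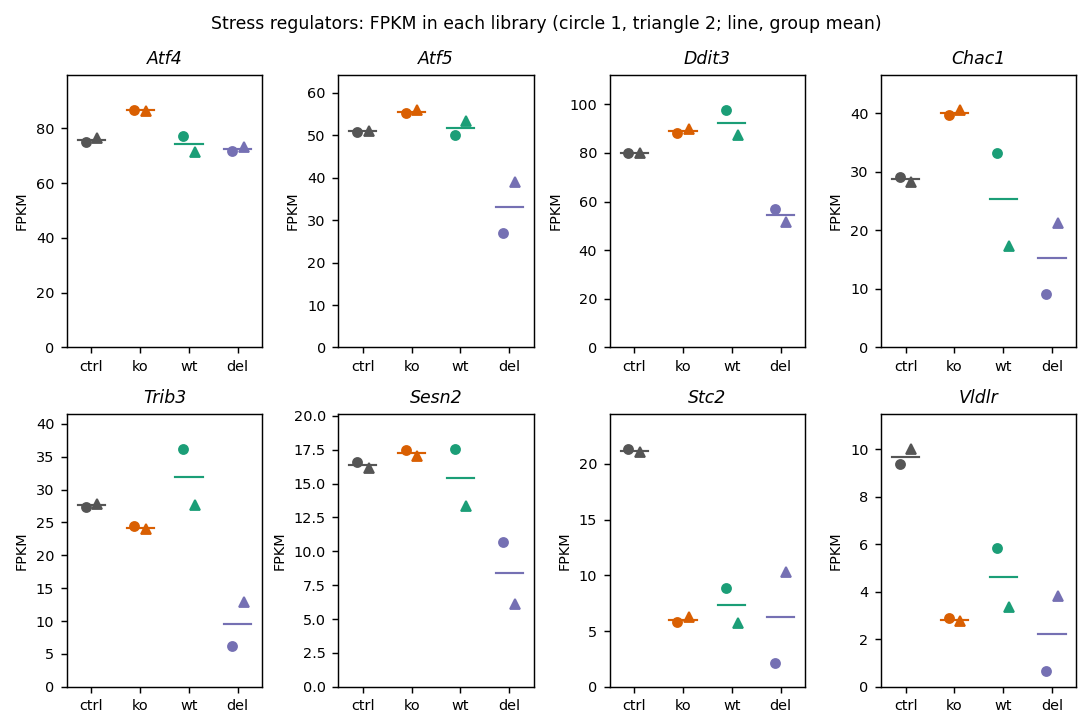
FPKM of the 8 regulators in each library, for control (ctrl), knockout (ko), wild-type rescue (wt) and TAFH-deleted rescue (del); circles are library or clone 1, triangles 2, and lines are group means. The TAFH-deleted clones are the lowest libraries for Atf5, Ddit3, Trib3 and Sesn2, while Stc2 and Vldlr are highest in control.

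Stc2 and Vldlr had another pattern, in which control stood apart. Stc2, a secreted glycoprotein induced by ATF4, was at 21.3 and 21.1 FPKM in control, 5.78 and 6.25 in knockout, 8.88 and 5.73 in wild-type rescue and 2.16 and 10.3 in TAFH-deleted rescue. Every library without the floxed allele was below control, and the control mean was 3.52-fold that of knockout. Vldlr, a lipoprotein receptor, was at 9.37 and 9.99 FPKM in control, 2.88 and 2.75 in knockout, 5.86 and 3.35 in wild-type rescue and 0.657 and 3.81 in TAFH-deleted rescue. Here too both control libraries were the highest, 3.44-fold the knockout mean. These were the 2 genes of 42 at least 2-fold lower in knockout than in control, where 5.76% of all genes were (Stc2 -1.66 ± 0.97, Vldlr -1.49 ± 0.85), and 0 of 42 were higher by that much (background 0.798%). With 1 sample on each side the spread came from the rescue clones, and neither passed (limma adjusted p 0.647 and 0.645), whereas without TAFH-deleted clone 1 or clone 2 both did. In the TAFH-deleted clones Stc2 had 49 and 266 fragments and Vldlr 76 and 498.

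The enzymes of serine, asparagine, proline and one-carbon metabolism were lower in knockout than in control in 8 of 8 genes, by little (median -0.20, all genes -0.03 with 54.9% lower, range -0.29 to -0.07). The count of 8 lower held under quantile normalization. Wild-type rescue did not bring them back to the control level. In 7 of 8 it was lower still than knockout (median -0.29, all genes -0.04 with 54.7% lower), or 6 of 8 under quantile normalization. Asns, the glutamine-dependent asparagine synthetase, was at 59.9 and 60.3 FPKM in control, 52.4 and 51.6 in knockout, 44.0 and 37.7 in wild-type rescue and 26.1 and 54.2 in TAFH-deleted rescue. Control was the highest group and TAFH-deleted clone 1 the lowest library.

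Serine synthesis from glycolysis runs through Phgdh, Psat1 and Psph. Psat1, its aminotransferase, was at 83.4 and 84.8 FPKM in control, 73.8 and 73.8 in knockout, 53.1 and 47.8 in wild-type rescue and 63.1 and 89.8 in TAFH-deleted rescue. Both TAFH-deleted clones were above both wild-type clones (0.57 ± 0.19 SE, limma adjusted p = 0.154). Phgdh, the first enzyme of the path, was at 13.0 to 15.4 FPKM in control and knockout, 10.3 and 9.83 in wild-type rescue and 10.3 and 18.03 in TAFH-deleted rescue. Psph, the phosphatase, was at 44.4 FPKM in each control library, 36.3 in each knockout library, 36.9 and 30.2 in wild-type rescue and 32.8 and 47.3 in TAFH-deleted rescue, and its rescue forms overlapped. The mitochondrial one-carbon enzymes Shmt2 (41.1 and 72.5 FPKM in TAFH-deleted clones 1 and 2) and Mthfd2 (27.1 and 54.9) showed the widest clone gap after Asns. For proline synthesis, Aldh18a1 and Pycr1 were lower in both TAFH-deleted clones than in either wild-type clone, Pycr1 at 6.98 and 9.39 against 11.7 and 11.5 FPKM.

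**Figure D4:**
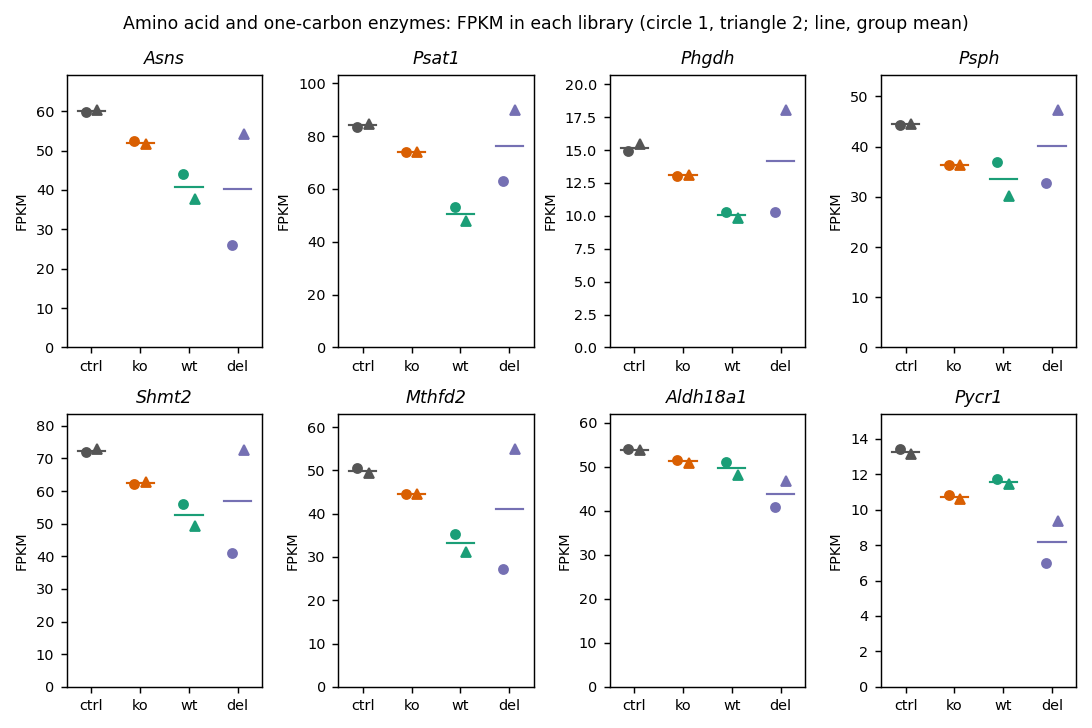
FPKM of the 8 enzymes in each library, with groups, symbols and lines as for the regulators. Control lies above knockout in each panel, and in TAFH-deleted rescue clone 2 (triangle) lies above clone 1 (circle) in 8 of 8, for Asns at 54.2 against 26.1.

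The transporters moved in different ways. Slc7a5, the large neutral amino acid exchanger LAT1, was at 59.3 and 59.2 FPKM in control, 62.8 and 62.8 in knockout, 39.9 and 29.9 in wild-type rescue and 44.0 and 64.3 in TAFH-deleted rescue. Wild-type rescue was the lowest group without overlap (-0.84 ± 0.30 against knockout, limma adjusted p = 0.367), the largest difference of the 42 genes in that comparison. Its partner chain Slc3a2 was at 57.3 to 65.5 FPKM in all libraries. Slc1a4, a carrier of alanine, serine and cysteine, was at 37.6 to 42.8 FPKM in control, knockout and wild-type rescue and at 31.9 and 25.01 in TAFH-deleted rescue. Both TAFH-deleted clones were below the rest (-0.58 ± 0.14 against wild-type rescue, limma adjusted p = 0.0971). Slc7a1, a carrier of arginine and lysine, was at 24.9 and 24.3 FPKM in control and 9.40 and 31.0 in the TAFH-deleted clones, which were the lowest and the highest of all libraries. Slc7a11, the cystine and glutamate exchanger, was at 0.839 to 4.25 FPKM.

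The 11 tRNA synthetases differed by small amounts. In the mean of the TAFH-deleted clones, 11 of 11 were lower than in knockout, also under quantile normalization (median -0.16, all genes 0.03 with 44.2% lower, lowest -0.25 in Tars). This was carried by clone 1, in which 11 of 11 were lower (median -0.27), whereas clone 2 had 6 lower and 5 higher (median -0.01). In wild-type rescue 10 of 11 were lower than in knockout (median -0.14, all genes -0.04 with 54.7% lower). Here the log2 depth ratio was -0.20, and Nars, Gars and Tars used more than 50% of their positions. The part of depth in this count was not tested. Between the rescue forms 7 were higher and 4 lower in TAFH-deleted (backgrounds 56.0% and 43.9%), and this turned to 4 higher and 7 lower under quantile normalization. Sars, the seryl-tRNA synthetase, had the clearest separation. It was at 42.1 and 41.9 FPKM in control, 53.2 and 53.6 in knockout, 43.0 and 40.9 in wild-type rescue and 50.2 and 51.0 in TAFH-deleted rescue. Control and wild-type rescue were low and knockout and TAFH-deleted rescue high, with no overlap between these pairs of groups (knockout against control 0.34 ± 0.10, limma adjusted p = 0.503; TAFH-deleted against wild-type rescue 0.27 ± 0.07, limma adjusted p = 0.115). Sars used 32.2% to 38.5% of its positions.

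The endoplasmic reticulum genes split in TAFH-deleted against wild-type rescue, with 7 of 10 higher (median 0.17, all genes 0.06 with 56.0% higher) and 3 lower, a count that stayed at 7 and 3 under quantile normalization while the median was 0.06. Those higher included the chaperones Hspa5, at 104 and 104 FPKM in control, 119 and 119 in knockout, 105 and 102 in wild-type rescue and 120 and 112 in TAFH-deleted rescue. Control and wild-type rescue were low and the other groups high. Hspa5 used 77.5% to 82.2% of its positions, with 4056 to 4299 fragments in every library. Its FPKM are to be read beside the depth ratios given above, and the part of depth in this order was not tested. Sdf2l1, a partner of BiP, was at 38.6 and 39.5 FPKM in control, 34.4 and 35.0 in knockout, 30.001 and 31.1 in wild-type rescue and 39.3 and 42.7 in TAFH-deleted rescue. Its TAFH-deleted clones were above both wild-type clones (0.41 ± 0.09, limma adjusted p = 0.0838), and it used 20.8% to 28.3% of its positions. Dnajc3, a lumenal cochaperone, was also higher in both TAFH-deleted clones (0.31 ± 0.09, limma adjusted p = 0.122).

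The 3 lower genes were Xbp1, Herpud1 and Dnajb9. Xbp1, whose spliced form drives chaperone and degradation genes, was at 53.1 and 53.3 FPKM in control, 40.4 and 40.7 in knockout, 48.9 and 50.9 in wild-type rescue and 32.4 and 39.7 in TAFH-deleted rescue. Wild-type rescue lay between knockout and control, and both TAFH-deleted clones were below knockout (TAFH-deleted against wild-type rescue -0.47 ± 0.12, limma adjusted p = 0.108; wild-type rescue against knockout 0.29 ± 0.15, limma adjusted p = 0.485). FPKM per gene do not separate the spliced form. Herpud1, which serves degradation of endoplasmic reticulum proteins, was at 66.3 and 68.1 FPKM in control, 72.1 and 70.4 in knockout, 65.0 and 58.4 in wild-type rescue and 49.1 and 43.7 in TAFH-deleted rescue. The TAFH-deleted clones were the lowest libraries (-0.40 ± 0.10 against wild-type rescue, limma adjusted p = 0.101). Dnajb9, a cochaperone, was at 20.3 and 21.2 FPKM in TAFH-deleted rescue and 24.0 to 29.4 elsewhere (-0.39 ± 0.11, limma adjusted p = 0.125).

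Over all 42 genes, differences against knockout leaned low. In wild-type rescue 31 of 42 (73.8%) were lower, where 54.7% of all genes were, and 11 higher (background 45.3%). Without overlap with knockout, 27 were lower (background 45.2%) and 7 higher (background 36.4%), and 0 differed by 2-fold in either direction (backgrounds 2.85% higher and 1.1% lower). Under quantile normalization 30 were lower and 12 higher in this comparison, and the median moved from -0.15 to -0.057. The log2 depth ratio of this comparison was -0.20, and its part in the lean was not tested. In TAFH-deleted rescue 34 of 42 (81.0%) were lower, where 44.2% of all genes were, and 8 higher (background 55.7%). By clone, 37 were lower than knockout in clone 1 (median -0.33) and 24 in clone 2 (median -0.05), so the lean was mostly that of clone 1. Without overlap, 21 were lower (background 23.5%) and 2 higher (background 31.4%). These comparisons share the knockout sample, which was counted once, so they are not independent. Knockout against control was even, with 20 higher (background 45.1%) and 22 lower (54.9%), or 16 and 26 under quantile normalization. TAFH-deleted against wild-type rescue had 21 higher (background 56.0%) and 21 lower (43.9%), or 16 and 26 under quantile normalization, with 10 and 11 of them without overlap (backgrounds 37.1% and 26.4%).

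The clones of a form differed from each other as a group of genes. TAFH-deleted clone 2 was above clone 1 in 34 of 42 genes (81.0%, background 50.9%), in 8 of 8 enzymes (median 0.63), 11 of 11 synthetases (median 0.26) and 4 of 5 transporters, but in 5 of 10 endoplasmic reticulum genes. Against knockout, the enzymes were lower in clone 1 in 8 of 8 (median -0.44) and higher in clone 2 in 6 of 8 (median 0.25). At least 2-fold apart were 5 of 42 genes (background 7.68%), all higher in clone 2 (background 4.08% higher and 3.59% lower), namely Stc2 (1.84), Slc7a1 (1.62), Vldlr (1.54), Chac1 (1.14) and Asns (1.03). Of the 8 genes with clone 2 lower than clone 1, Sesn2 (-0.72) and Slc1a4 (-0.34) had the widest gaps, and Ddit3 was among them (-0.13). Asns, Shmt2 and Slc7a1 changed side against wild-type rescue with the clone: clone 1 differed from the wild-type mean by -0.62, -0.35 and -0.95, and clone 2 by 0.40, 0.45 and 0.68. Wild-type clone 2 was lower than clone 1 in 34 of 42 genes (higher in 19.0%, background 50.8%), with 0 genes 2-fold apart (background 0.324%, of which 0.0915% higher and 0.233% lower) and a largest gap of 0.90 on the log2 scale. There is 1 library per clone, so these clone gaps have no replicate.

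**Figure D5:**
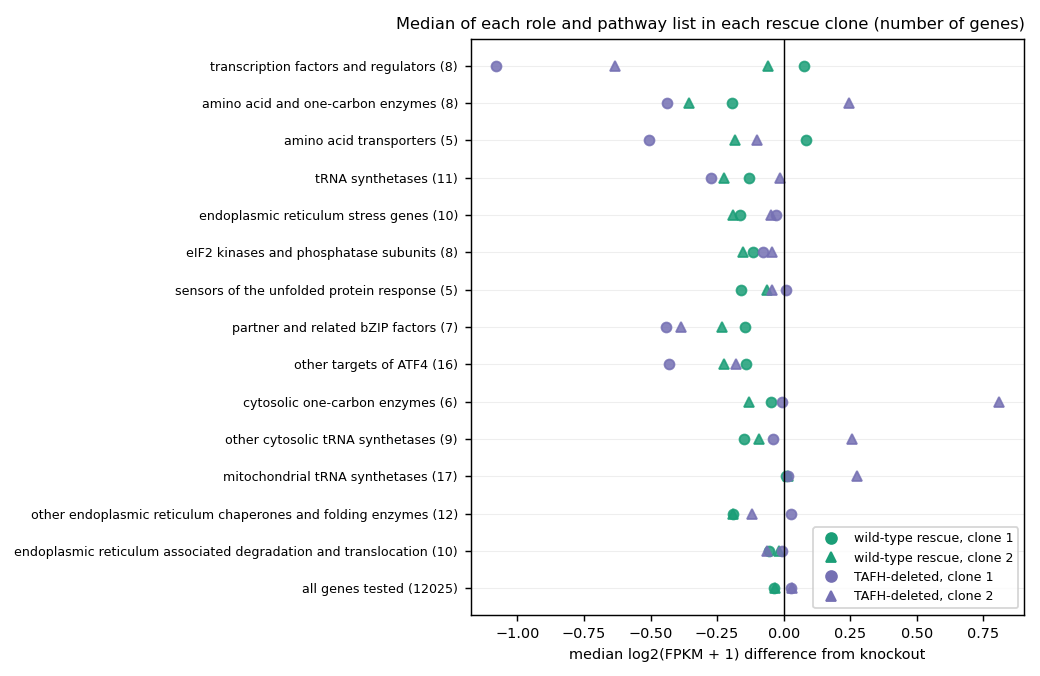
Median difference of log2(FPKM + 1) from knockout for the 5 roles, 9 further pathway lists and all genes tested, by rescue clone; the number of genes is in parentheses. TAFH-deleted clones are lowest for the regulators (-1.08 and -0.63) and part most for the enzymes (-0.44 and 0.25) and the cytosolic one-carbon enzymes (-0.01 and 0.81).

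Other genes of these pathways, in 9 further lists, gave 1 call among 90 genes tested (1.11%). It was a higher call, and no gene of the lists was called lower. In the same comparison 0.931% of all genes were called higher and 1.69% lower. Mbtps2, the site-2 protease that cleaves ATF6, rose in TAFH-deleted against wild-type rescue (1.01 ± 0.12 SE, limma adjusted p = 0.0479). This call too sits at the threshold: no gene at all was called in this comparison with the replicate block, with no filter on low values, or without wild-type clone 1 or clone 2. It was at 17.5 and 17.7 FPKM in control, 19.8 and 19.9 in knockout, 12.1 and 11.2 in wild-type rescue and 24.7 and 24.4 in TAFH-deleted rescue, so wild-type rescue was the lowest group. Of the other 4 sensors of its list (Ern1, Atf6, Atf6b and Mbtps1) none was called. Among 8 eIF2 kinases and phosphatase subunits, none was called, and the stress-induced subunit Ppp1r15a (GADD34) was the lowest in TAFH-deleted against wild-type rescue at -0.67 ± 0.20 (limma adjusted p = 0.129). It was at 22.0 and 28.4 FPKM in TAFH-deleted rescue and 34.5 to 46.7 elsewhere.

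Partner and related bZIP factors were lower in TAFH-deleted than in wild-type rescue in 7 of 7 (median -0.48, and 7 of 7 under quantile normalization with a median of -0.20), where 43.9% of all genes were lower, with none called. Atf3, a stress-induced repressor, was at 16.8 and 15.4 FPKM in control, 32.7 and 33.5 in knockout, 25.5 and 17.1 in wild-type rescue and 14.2 and 6.47 in TAFH-deleted rescue. Knockout was the highest group and the TAFH-deleted clones the lowest libraries (-1.68 ± 0.51 against knockout, limma adjusted p = 0.739). Of 18 other ATF4 targets 16 were tested, since Gdf15 and Fgf21 were under the filter on low values. In TAFH-deleted rescue 15 were lower than in knockout (median -0.29), where 44.2% of all genes were, with none called.

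Cytosolic one-carbon enzymes were lower in knockout than in control in 6 of 6 (median -0.42), where 54.9% of all genes were, with Shmt1 lowest at -1.35. Shmt1, the cytosolic partner of Shmt2, was at 22.2 and 22.0 FPKM in control, 6.96 to 8.71 in knockout, wild-type rescue and TAFH-deleted clone 1, and 23.1 in TAFH-deleted clone 2. Clone 2 alone was at the control level. Among 9 other cytosolic tRNA synthetases 8 were higher in TAFH-deleted than in wild-type rescue (median 0.24), 7 under quantile normalization. Of 17 mitochondrial synthetases 11 were (median 0.18), where 56.0% of all genes were higher. Against knockout, 4 of the 9 were higher in TAFH-deleted clone 1 and 9 in clone 2, and of the 17, 9 and 13. The 12 other chaperones and folding enzymes were higher in knockout than in control in 11 (median 0.19, background 45.1%) and lower in wild-type rescue than in knockout in 12 of 12 (median -0.19, background 54.7%). They were higher in TAFH-deleted than in wild-type rescue in 11 (median 0.16, background 56.0%), with none called. Of these 12, 6 used more than 50% of their positions, their medians were close to the depth ratios of 0.22, -0.20 and 0.16, and under quantile normalization the counts were 8, 11 and 8. Of 12 genes of degradation and translocation 10 were tested and none was called.

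The authors' deposited table holds a separate test of each transcript for 3 comparisons. For knockout against control, the authors' deposited table called 15 of 51 tested transcripts of these genes higher (29.4%, background 22.7%) and 18 lower (35.3%, background 31.1%). By the authors' deposited table, Chac1 (q = 3.85e-10), 1 of the 2 transcripts of Hspa5 (q = 2.38e-13) and Atf4 (q = 4.9e-05) were higher there and Xbp1 (q = 1.08e-09) lower. The authors' deposited table also called Stc2, Slc7a1 and both transcripts of Vldlr lower, and 1 of the 2 transcripts of Sars higher (each q listed as 0.0). Hspa5 and Atf4 used more than 50% of their positions, and the part of depth in their calls was not tested. For wild-type rescue against knockout, the authors' deposited table called 3 of 46 higher (Trib3, Vldlr and Xbp1; background 14.1%) and 9 lower (background 11.7%), among them a transcript of Psat1 (q = 1.16e-06) and of Sars (q = 4.3e-06). For TAFH-deleted rescue against knockout it called 0 of 52 in either direction, where the authors' deposited table called 0.277% of all transcripts higher and 0.681% lower.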

How the data were processed

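The authors deposited FPKM for 30028 transcripts in 8 libraries, with transcript lengths per the file headers; CASAVA 1.8, TopHat, Cufflinks and Cuffdiff on mm9 are named per the submitters' processing notes. Cuffdiff p-values and q-values were deposited by the authors and are quoted as theirs. Counting options and other versions are not given in the sources used here.

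FPKM of transcripts were summed per gene and taken to log2(FPKM + 1). Genes had at least 1 FPKM in 2 libraries and a transcript of at least 300 bases, leaving 12025. Low FPKM were whole fragments within 0.05 for 100% of low values once 204.1 bases were taken from the length, over 12371 genes that have 1 transcript (1000 bases or longer) and a locus of their own. This gave the depth and the fragments, which add over transcripts for genes with several. The share of positions in use is these fragments divided by the positions on both strands of the longest transcript. It is computed and not a count of observed read starts. No column of an unknown sample was used.

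The test was limma-trend (limma 3.58.1, R 4.3.3), two-sided, with Benjamini-Hochberg adjustment over all genes at 0.05. All groups entered one fit, the control and knockout pairs averaged, which left 6 samples, 2 residual and 2.15 prior degrees of freedom. It was tested on simulated data. With 2 clones per form, an exact permutation test of a single gene cannot pass 0.05 and none was used.

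Members, gene lists and the fit were chosen with earlier results of these data known. Genes are given in every library where a comparison reached 1 on the log2 scale or passed the test, and Atf4, Ddit3, Hspa5 and Xbp1 always; other genes given in full are examples by role chosen after their values were seen. Alternatives were all libraries counted singly, other pseudocount (0.1), filters, normalization, transcripts and samples, and a replicate block. Clone numbers do not pair the rescue samples: deviations of same-numbered clones correlated at -0.0776. Promoters are RefSeq, GRCm38.p6, matched by accession or symbol; exon overlaps are GENCODE M21; loci are mm9.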

Additional observations from a re-analysis of the deposited data

Results flagged for a closer look

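Ddit3 was the 1 gene of the 42 whose level differed between the rescue forms by the test of that difference, with the wild-type and the TAFH-deleted transgene compared on the same Taf4 -/- background. This is 2.38% of the 42 genes, where 1.69% of all genes were called lower and 0.931% higher. Ddit3 was lower in TAFH-deleted rescue by -0.76 on the log2(FPKM + 1) scale (limma adjusted p = 0.0496), and both clones showed that direction (-0.69 and -0.82). The call was lost under 8 of 16 alternative settings. Mars, which shares 68 exon bases with it on the opposite strand, differed by -0.13 ± 0.13 (limma adjusted p = 0.54). The part of these shared bases in the value of Ddit3 was not tested.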

How the results depend on the processing

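Ddit3, Trib3, Chac1, Stc2 and Vldlr kept the direction of the differences given above under each of 15 or 16 alternatives run for them, and Ddit3 lost its call under 8 of 16. With all 8 libraries counted singly, called members (and all genes) became 5 (2857) for knockout against control, 8 (2998) for wild-type rescue against knockout, 5 (1074) for TAFH-deleted rescue against knockout and 18 (4566) for TAFH-deleted against wild-type rescue. Leaving out 1 library at a time gave, in that order, 0 to 7 (0 to 2712), 0 to 12 (0 to 3211), 0 to 10 (0 to 4013) and 0 to 29 (0 to 6722), with the highest counts without a TAFH-deleted clone. Without TAFH-deleted clone 1 or clone 2 the last comparison had 29 or 25 called members, and Ddit3 was among both, while Asns, Shmt2 and Slc7a1 were called higher without clone 1 and lower without clone 2. Fitting only the groups compared gave 12 (3169) for wild-type rescue against knockout and 0 members between the rescue forms; it could not be fitted for knockout against control, which has no residual degrees of freedom. Between the rescue forms called members were 0 with pseudocount 0.1 (142 genes), no filter on low values (0), short transcripts kept (106), the longest transcript only (29) and the replicate block (0), and 1 under quantile normalization (175 genes). With no filter 213 genes were called for knockout against control, and with short transcripts kept 15, 21 and 13 in the comparisons with control and knockout. The cause was not tested. The median of the members in wild-type rescue against knockout ran from -0.20 to -0.13 over left-out libraries and was -0.057 under quantile normalization. In TAFH-deleted rescue against knockout it ran from -0.33 (without clone 2) to -0.05 (without clone 1). Between the rescue forms it ran from -0.26 (without TAFH-deleted clone 2) to 0.15 (without clone 1) and so changed sign. In knockout against control it was -0.082 for the members under 50% of positions in use, an alternative chosen after seeing the data. Vldlr and Slc7a11 were under 1 FPKM in a library, where few fragments limit the precision, and 7 members used more than 50% of their positions.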
